A study of Solanum lycopersicum with 6 samples.

Results

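The xyloglucan endotransglucosylase/hydrolase (XTH, also XET) family was followed in Micro-Tom, a dwarf tomato, in fruits harvested at the mature green stage. Its members were taken as all probe sets whose gene symbol in the platform annotation begins with XTH or XET and a digit, with or without a leading t, or with tXET-B. The rule gave 9 genes of 803 with a symbol, on 11 of 10101 tested probe sets: XTH1, XTH3, XTH5, XTH6, XTH7, XET2, XET4 and tXET-B2 with 1 probe set each, and XTH16 with 3. All plants grew in a greenhouse (25 °C in daytime, 20 °C in the evening), and fruits of both groups were picked 30 to 40 days after flowering. Control plants, grown under normal conditions, received a liquid fertilizer diluted 500 times, and drought plants were given that dilution weekly. The treatment may therefore have changed nutrients along with water. Each group held 3 arrays of biotin-labelled cRNA. No label states whether samples within a group stem from different plants. The p-values thus cover the spread among these 6 samples alone, and that spread may be technical.

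XTH enzymes act on xyloglucan, the hemicellulose that coats and tethers cellulose microfibrils in the primary wall of tomato and most other flowering plants. They cut a xyloglucan chain and join the new end to another chain, and some members can pass the end to water instead, which shortens the chain. In growing and softening fruit they work beside expansins, cellulases and pectin enzymes, and the genes of the family differ in organ and in hormone response.

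Values are probe set summaries on a log2 scale, as deposited. The array medians ran from 7.90 to 7.91, but most probe sets hardly moved: 75.7% had a range under 0.001 over the 6 arrays. A log2 difference here may therefore not equal a fold change at the scanner. Across probe sets, control replicate 3 correlated at 0.9990 to 0.9992 with the drought arrays and at 0.9960 and 0.9970 with control replicates 1 and 2. Member values are given with and without control replicate 3 where it matters. Of 17 listed green-tissue genes, 3 were on the array under their symbols (CAB4, CAB5 and CAB6A), none of them below the 25th percentile of any array, and their summed level was 27.6 to 27.8 in control and 27.5 to 27.7 in drought. The 8 of 11 ripe-fruit genes found summed to 58.8 to 59.2 in control and 58.7 to 58.8 in drought, with PG2, RIN and ACS2 in the lowest part (below the 25th percentile) of every array. For 3 of 6 epidermis genes the sums were 29.35 to 29.37 in control and 29.32 to 29.34 in drought. For 2 of 5 seed genes they were 17.630 to 17.648 and 17.651 to 17.659. Single genes differed by -0.022 to -0.00061 (green tissue), -0.14 to 9.8e-06 (ripe fruit), -0.020 to -0.0051 (epidermis) and -0.0039 to 0.022 (seed). No gene of these 4 lists passed the test, and their part in the member differences was not tested. In bulk fruit, fewer cells of a type and less RNA per cell cannot be told apart.

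In drought fruits XTH3, XET2 and tXET-B2 had lower mean levels than in control fruits, by 0.40, 0.36 and 0.23 on the log2 scale, and XTH16 had a higher mean level, by 0.078 to 0.21 over its 3 probe sets. The other members differed by 0.053 or less. In limma, with Benjamini-Hochberg adjustment over all probe sets, 0 of the 11 member probe sets passed an adjusted p of 0.05, where 77 probe sets (0.762%) of the whole array did. At an unadjusted p under 0.05 there were 5 member probe sets, 3 higher and 2 lower in drought, against 25% of all probe sets. The means of 5 member probe sets were higher in drought and those of 6 were lower. Their median difference was -0.00025, and that of all probe sets was -1.1e-07. The 3 drought values lay beyond all 3 control values in 6 of the 11, against a background of 34.8%. XTH16 alone gave 3 of these 6, which are not independent, so the count by gene is smaller. The 6 were 4 higher probe sets (background 20.5%), namely the 3 of XTH16 and that of XTH6, and 2 lower ones (background 14.3%), XET2 and XTH1. The split depended on scaling: it was 4 higher and 4 lower after quantile normalization, with XTH7 and XET4 added (37.5% of all probe sets did not overlap), and 4 higher and 5 lower after centring each array on its median, with XTH5 added as well (93.9%). A two-sided exact permutation test of 3 arrays against 3 cannot go below 0.1, and each of the 6 probe sets named for the deposited values stood at it.

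**Figure D1:**
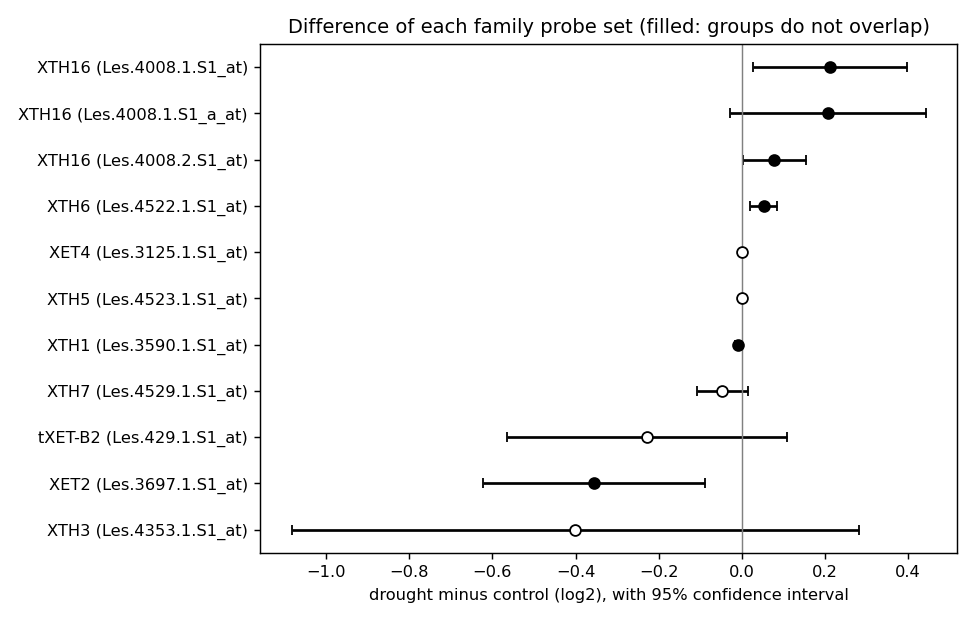
Difference between drought and control for each family probe set on the log2 scale (x axis), with the limma 95% confidence interval; filled points mark probe sets whose groups do not overlap. XTH3 has the widest interval, from -1.08 to 0.28, and the unadjusted intervals of XET2, XTH1, XTH6 and 2 of the XTH16 probe sets lie on one side of 0.

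XET2 encodes a xyloglucan endotransglycosylase that was described in mature, non-elongating tissue of tomato. It was at 8.14, 8.01 and 7.81 in the control arrays and at 7.56, 7.70 and 7.63 in the drought arrays. All drought arrays lay below all control arrays, and control replicate 3 was the control nearest to them. The means were 7.99 ± 0.17 and 7.63 ± 0.068 (SD, n = 3 each), a difference of -0.36 ± 0.10 (SE) with a 95% confidence interval from -0.62 to -0.088. This would be a factor of 1.28 if the deposited scale is a true log2 scale. The limma adjusted p was 0.134, and 0.0583 at a difference of -0.44 without control replicate 3. Its largest shift toward 0 came without control replicate 1, which left -0.28.

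XTH3 showed the widest spread of the family. Its control values were 9.15, 9.33 and 8.62, and its drought values 8.60, 8.37 and 8.93. The groups overlapped: control replicate 3 lay within the drought arrays, and drought replicate 3 lay above control replicate 3. The difference was -0.40 ± 0.25 (SE, 95% confidence interval -1.08 to 0.28, limma adjusted p = 0.403, exact permutation p = 0.2). With control replicate 3 left out it was -0.60 (limma adjusted p = 0.176), and with control replicate 2 left out -0.25. Without drought replicate 2 it was -0.27 and without drought replicate 3 -0.55, so its size depended on single arrays of both groups.

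The gene tXET-B2, first cloned from tomato fruit, followed the same arrays. It was at 9.37, 9.46 and 9.10 in control and at 9.05, 8.98 and 9.22 in drought. As in XTH3, control replicates 1 and 2 were the highest arrays, drought replicate 3 came next and drought replicate 2 was the lowest. The difference was -0.23 ± 0.13 (SE, 95% confidence interval -0.57 to 0.11, limma adjusted p = 0.342, exact permutation p = 0.2), and it became -0.33 without control replicate 3 and -0.15 without control replicate 2. Over the 6 arrays the values of XTH3 and tXET-B2 had a Pearson's r of 0.995, given as a description. The probe sequences were not used here, so binding of one transcript to the probes of the other was not tested.

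XTH1, a gene described as auxin-induced in tomato hypocotyls, had nearly level values. They were 9.574, 9.575 and 9.580 in control and 9.565, 9.572 and 9.566 in drought. The groups did not overlap, but the whole range was 0.0156. The difference was -0.0087 ± 0.0028 (SE, 95% confidence interval -0.016 to -0.0012, limma adjusted p = 0.162). XTH7 was at 6.90, 6.96 and 6.94 in control and at 6.85, 6.91 and 6.90 in drought. Its groups overlapped through control replicate 1, and the difference was -0.047 ± 0.023 (SE, 95% confidence interval -0.11 to 0.014, limma adjusted p = 0.294). It was -0.031 without drought replicate 1 and -0.063 without control replicate 1. XTH7 lay among the dimmest 30% of probe sets.

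XTH16 was the member with the most probe sets and the one with higher values in drought on each of them. Its brightest probe set was at 8.90, 9.10 and 9.21 in control and at 9.25, 9.29 and 9.28 in drought. The second was at 7.52, 7.66 and 7.77 in control and at 7.84, 7.88 and 7.86 in drought. The third and dimmest was at 7.11, 7.16 and 7.21 in control and at 7.23, 7.25 and 7.24 in drought. On all 3 the arrays stood in 1 and the same order, with control replicate 1 lowest and drought replicate 2 highest, and the groups did not overlap. The drought arrays were tight and the controls spread: the SDs of the brightest probe set were 0.16 in control and 0.024 in drought (n = 3 each).

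The differences of XTH16 were 0.21 ± 0.088 (SE, limma adjusted p = 0.239), 0.21 ± 0.069 (adjusted p = 0.165) and 0.078 ± 0.028 (adjusted p = 0.195) in the order above. Their 95% confidence intervals ran from -0.028 to 0.44, from 0.026 to 0.40 and from 0.0018 to 0.15. Without control replicate 1 they were 0.12, 0.15 and 0.052, and without control replicate 3 they were 0.28, 0.27 and 0.10. The smallest limma adjusted p without control replicate 3 was 0.0753. The first and second probe sets carry the same source accession and are not independent measurements of the gene. Pearson's r between probe sets over the 6 arrays ran from 0.989 to 0.998.

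XTH6 was the other member with higher values in all drought arrays. It stood at 6.13, 6.17 and 6.16 in control and at 6.21, 6.20 and 6.22 in drought. The step between the groups was small, 0.053 ± 0.012 (SE, 95% confidence interval 0.020 to 0.085), with the lowest unadjusted p of the family (0.0102) and a limma adjusted p of 0.103. XTH6 was dim throughout, since the 25th percentiles of the arrays were 6.63 to 6.64.

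**Figure D2:**
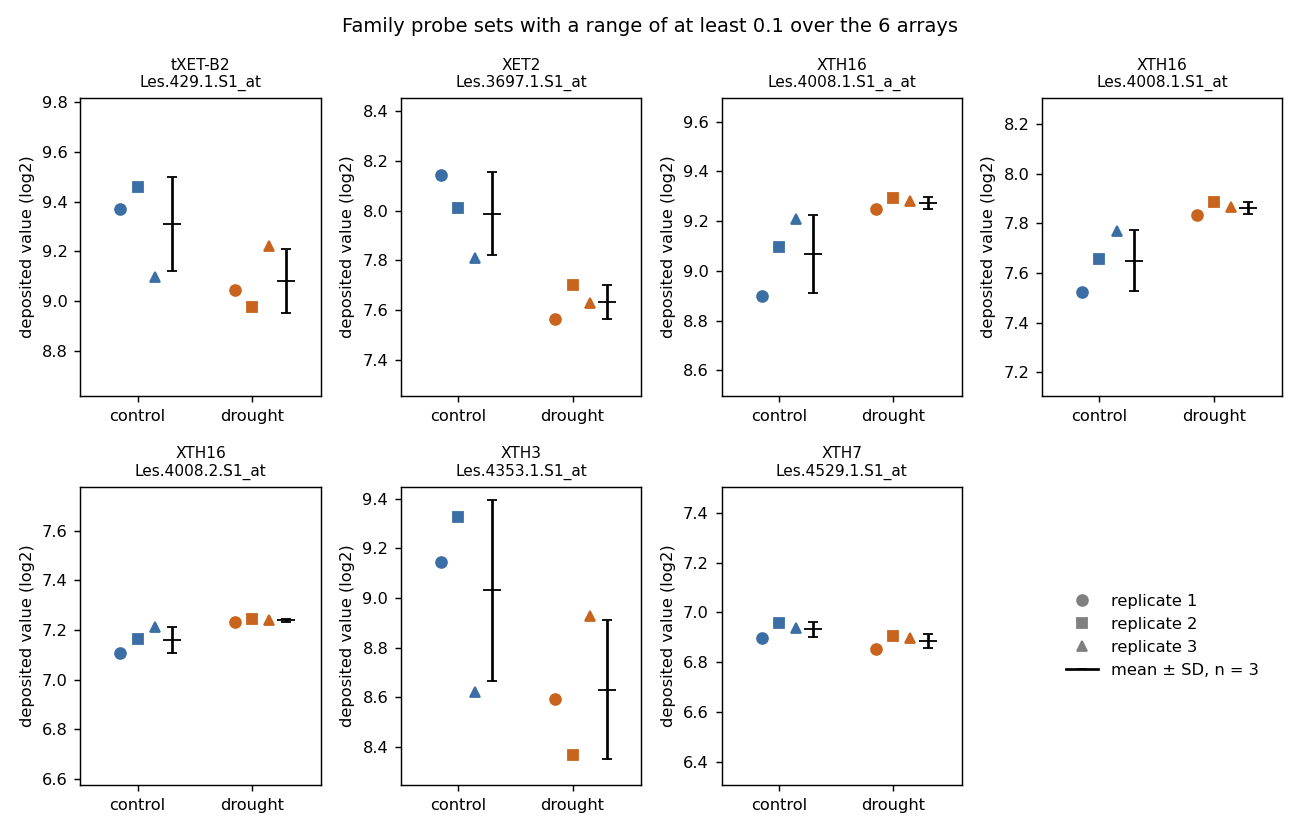
Deposited log2 values (y axis, each panel spanning 1.2 log2 units) of the 7 family probe sets with a range of at least 0.1, by group. Symbols mark replicate numbers, which are not known to pair arrays, and bars give mean ± SD (n = 3). In XTH3 and tXET-B2 control replicate 3 lies among the drought arrays, while in XET2 and XTH16 the groups do not overlap.

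XTH5 and XET4 were level. XTH5 ran from 8.865 to 8.868 over the 6 arrays with overlapping groups and a difference of -0.00025 ± 0.00077 (SE, 95% confidence interval -0.0023 to 0.0018, limma adjusted p = 0.894). XET4, known from the endosperm cap of germinating tomato seeds, was at 5.85 on every array. Its range of 5.9e-06 lay under the median range of 45 bacterial and phage spike-in probe sets (7.9e-06), and it too was below each array's 25th percentile. No difference was detectable for it (2.3e-06, limma adjusted p = 0.663), and its sign turned after quantile normalization and after centring. Outside the rule, the probe set of LOC543916, which RefSeq also lists as XTH9, was at 7.28, 7.43 and 7.29 in control and at 7.31, 7.29 and 7.29 in drought. Its groups overlapped, with a difference of -0.035 ± 0.049 (SE, limma adjusted p = 0.725), which turned to 0.016 without control replicate 2.

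The family's values varied over the 6 arrays more than those of most probe sets. A range of at least 0.1 was found in 7 of its 11 probe sets (63.6%), against 2.65% of all probe sets, 7.46% of the 898 named ones outside the family and 3 of 38 (7.89%) among other wall enzymes. An absolute difference between the groups of at least 0.1 was found in 5 of 11, against 1.59% of all probe sets. It was found in 4.12% of the named ones outside the family and in 5.26% of other wall enzymes. The median absolute difference was 0.078 in the family and 4.5e-05 over all probe sets. For the named ones outside the family it was 0.00013, and for other wall enzymes 0.0010. The SD of the control arrays exceeded that of the drought arrays in 11 of 11 member probe sets, and in 71.3% of all probe sets. Among other wall enzymes it did so in 29 of 38 (76.3%), from 12 of 13 expansin probe sets to 1 of 4 for polygalacturonases. In some members the SDs were nearly equal: control over drought was 1.03 in XTH1 and 1.09 in XTH7 and XET4. The largest ratio was 8.11, in the dimmest XTH16 probe set. Probe sets of 1 gene share their transcript, and these shares are given as descriptions with no test.

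**Figure D3:**
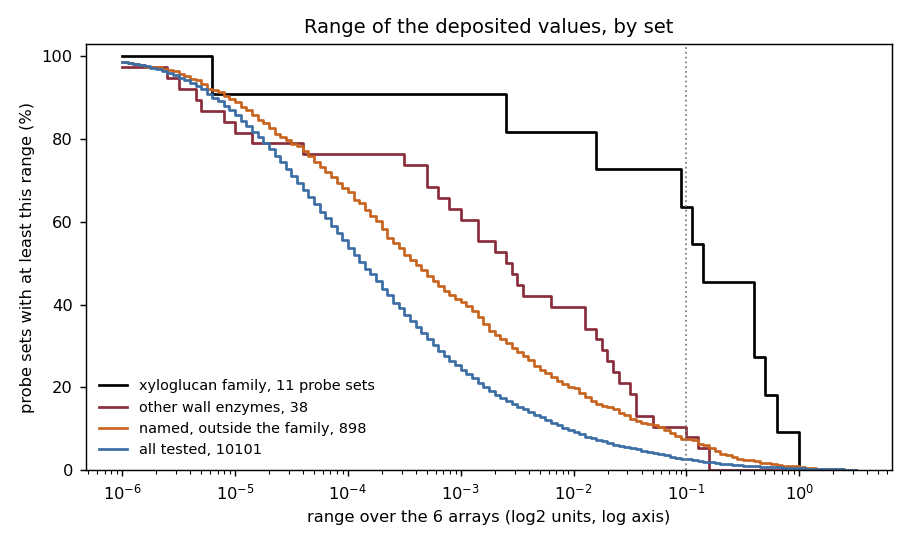
Percent of probe sets (y axis) whose range over the 6 arrays is at least the value on the x axis (log2 units on a log axis), for the family, the other wall enzymes, all other named probe sets and all tested probe sets. At the dotted line, a range of 0.1, the family stands at 63.6% and all probe sets at 2.65%.

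Control replicate 3 lay toward the drought arrays, or among them, in several members. Measured from the mean of control replicates 1 and 2 to the drought mean, it stood 101% of the way in XTH3, 95.1% in tXET-B2, 60.1% in XET2 and 66.1% to 75.8% over the probe sets of XTH16. In XTH7 and XTH1 it stood on the far side, at -20.3% and -94.5%, and in XTH5 and XTH6 it stood nearer to the other controls, at 22.1% and 21.4%. XET4 stood at 108%, within a range of 5.9e-06. It was nearer to the drought mean in 6 of the 7 member probe sets with a range of at least 0.1, and in 188 of 268 such probe sets over the whole array (70.1%), with a median of 75.3% of the way.

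**Figure D4:**
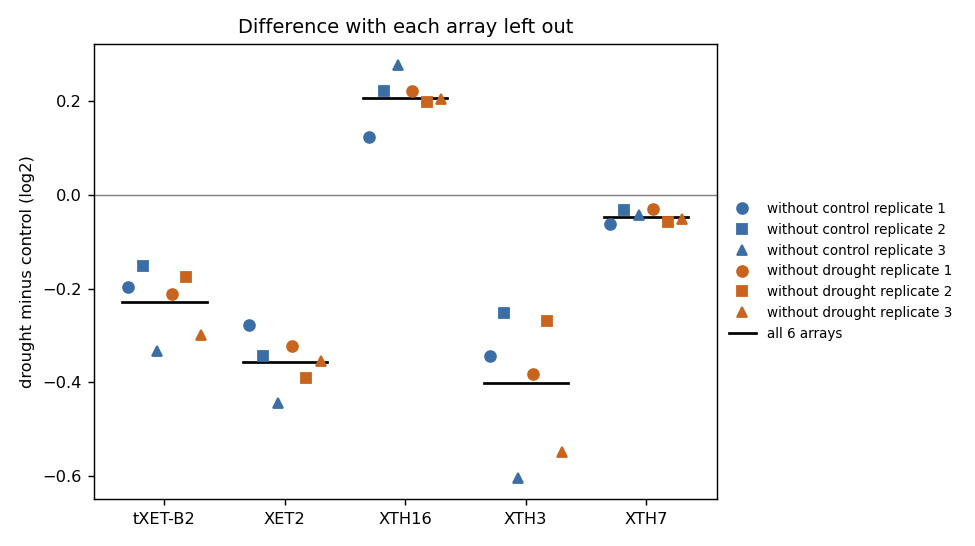
Difference between drought and control (y axis, log2) for the brightest probe set of each family gene with a range of at least 0.1; black lines use all 6 arrays and symbols leave out 1 array each. No symbol crosses 0, and XTH3 ranges from -0.60 without control replicate 3 to -0.25 without control replicate 2.

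The genes whose values over the 6 arrays were most like those of each member were sought among 63 named genes with a range of at least 0.1, by Pearson's r, as a description over 6 arrays that share 2 groups. The same 3 genes came first for tXET-B2 and for XTH3. They were MPK3, a mitogen-activated protein kinase gene (r of 0.997 and 0.993), the LEA-like gene ER5 (0.992 and 0.978), and CBF1, a cold-response transcription factor gene (0.972 and 0.974). In these, too, control replicates 1 and 2 were the highest arrays, and drought replicate 2 was the lowest. MPK3 was at 8.14, 8.20 and 7.98 in control and at 7.97, 7.92 and 8.05 in drought, and CBF1 at 8.57, 8.80 and 8.36 and at 8.32, 8.24 and 8.53. Each gene's groups overlapped, and the limma adjusted p was 0.353 for MPK3, 0.264 for ER5 and 0.436 for CBF1. The MPK3 values are those of its brightest probe set, with a difference of -0.13. With the probe sets of MPK3 averaged the difference was -0.068, so the pattern may not hold for all of them.

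XTH16 was most like LOC543971 (r of 0.995), the cell wall invertase gene lin5 (0.978) and yfe37 (0.930). The invertase gene lin5 was at 6.93, 7.08 and 7.10 in control and at 7.16, 7.16 and 7.19 in drought (difference 0.14, limma adjusted p = 0.201, at 0.085 without control replicate 1). XET2 was most like LOC544158 (0.966), the endo-1,4-beta-glucanase gene Cel1 (0.959) and the arginase gene ARG2 (0.958). XTH7 had weaker matches, the glucanase gene GluB (0.876), LOC543758 (0.868) and cevi19 (0.833). ARG2 and LOC543758 were likewise taken at their brightest probe sets, with differences of -0.053 and -0.15. Averaged over the probe sets of each gene, these were -0.029 and -0.077. XET2 and XTH16 ran opposite to each other, with r from -0.951 to -0.923 over the 3 probe sets of XTH16.

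**Figure D5:**
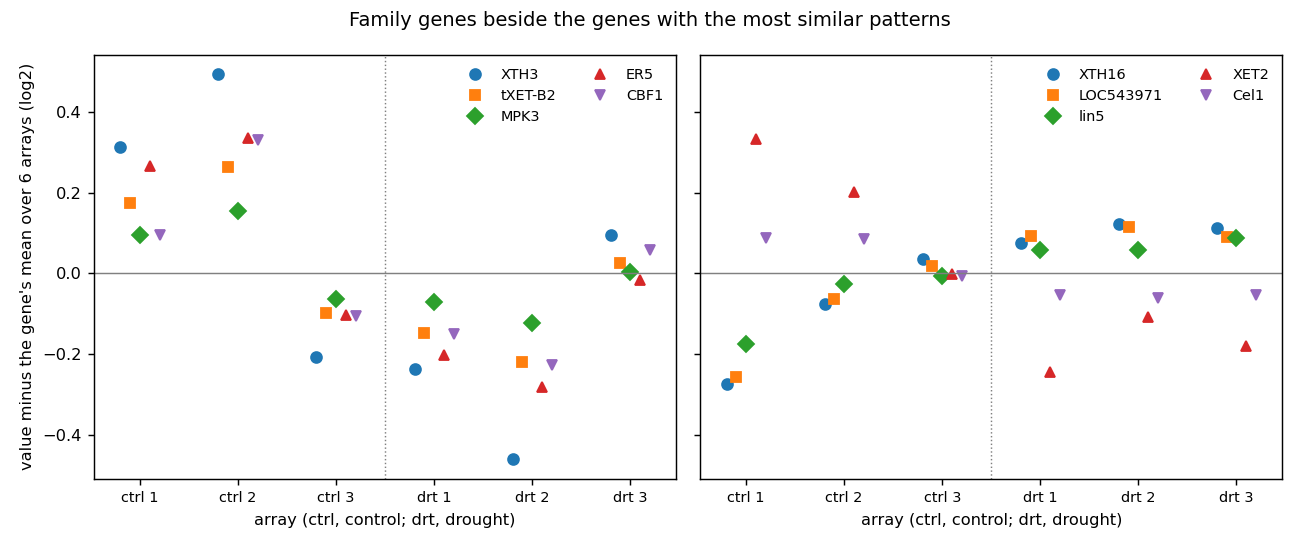
Value of each gene minus its own mean over the 6 arrays (y axis, log2) by array (x axis, ctrl for control and drt for drought). On the left XTH3, tXET-B2, MPK3, ER5 and CBF1 are highest in control replicates 1 and 2; on the right XTH16, LOC543971 and lin5 are lowest in control replicate 1, where XET2 is highest.

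Other wall enzymes were taken by symbol: 37 genes on 38 probe sets. In limma 1 of them passed over all probe sets, in the lower direction (background 0.238%), and 0 in the higher direction (0.525%). It was the pectin methylesterase gene PME2.1, at 10.561, 10.559 and 10.558 in control and at 10.544, 10.547 and 10.546 in drought (difference -0.014 ± 0.0013, SE, adjusted p = 0.0482). That call did not hold after quantile normalization (adjusted p = 0.0725) or without any 1 of the 5 arrays other than control replicate 3 (0.0898 to 0.188). The groups did not overlap in 17 of the 38 probe sets (44.7%), 10 higher and 7 lower, against 34.8% of all probe sets (20.5% higher and 14.3% lower). The median difference of the 38 was 1.4e-07.

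Expansins, which loosen the wall without cutting chains, had 7 higher and 6 lower means over 13 probe sets. Many of these differences were tiny, down to 7e-08 for EXPA3, and their median size was 0.0010. The groups did not overlap in 2 of the 13 (15.4%, background 34.8%), both higher in drought. The largest difference was that of exp18, at 8.53, 8.58 and 8.55 in control and at 8.64, 8.67 and 8.67 in drought (0.11 ± 0.017, SE, limma adjusted p = 0.0633). Among 6 cellulase probe sets the largest was that of Cel1, a cellulase gene linked to abscission, at 6.005, 6.002 and 5.910 in control and at 5.861, 5.854 and 5.862 in drought (-0.11 ± 0.030, SE, adjusted p = 0.123, and 0.00839 without control replicate 3). Cel1 was below each array's 25th percentile. Both differences were smaller than those of XTH3, XET2 and tXET-B2 on the log2 scale, but no test of that was run.

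Genes of enzymes that trim side chains or other wall polymers had smaller differences. The beta-galactosidase gene TBG7 had the largest difference of its 7 (0.072, limma adjusted p = 0.0539), and the xylosidase gene XYL1 differed by 0.015 (adjusted p = 0.0539, and 0.0331 without control replicate 3). Among 3 mannanase genes MAN2 had the largest difference (0.022, adjusted p = 0.148, and 0.0331 without control replicate 3). Both XYL1 and MAN2 were below the 25th percentile of every array. The inhibitor gene Xegip, whose protein binds fungal xyloglucanases, differed by -0.022 (adjusted p = 0.321). The 4 polygalacturonase genes, all among the dimmest 30% of probe sets, differed by at most 2.3e-06 in size, with TAPG2 at the far end. Of 16 listed regulators of ripening, ethylene response and growth, 10 were on the array under their symbols, 0 passed the test, and their differences ran from -0.14 (RIN) to 0.0040 (EIL2).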

How the data were processed

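The authors deposited 1 summary value per probe set and array, read here as log2 from the span of the values (5.46 to 15.8). Background correction, normalization and summary are not given in the sources used here. RNA was extracted with TRIzol and 100 ng was labelled, per the labels' protocols. The tissue label is mature green fruit, while the design text speaks of ripening plants. Samples were grouped by title. Of 10209 probe sets, 108 control probe sets were left out. Gene symbols came from the platform annotation, and 909 tested probe sets had 1 symbol. No coordinates are given, since the build is not named.

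The groups were compared with limma 3.58.1 under R 4.3.3, using eBayes after lmFit, two-sided, with Benjamini-Hochberg adjustment over 10101 probe sets at a threshold of 0.05 and with no filter or block. Confidence intervals (95%) are limma's and unadjusted. The fit was tested on simulated arrays, which do not bear on its power for the family. Array number limits the precision. All arrays were kept as separate samples: any pair differed by over 0.1 in 47 probe sets or more. Members and lists were chosen with earlier results of these data known. All member probe sets were named, and for wall enzymes each called one and the largest difference per class. Likeness took the 3 named genes with the highest r per member, 1 probe set per gene. Alternatives were quantile normalization, centring, a filter on the dimmest 30%, a trended robust prior, a block by replicate number, unmoderated variances, array weights, averaged probe sets and leaving out each array.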

Additional observations from a re-analysis of the deposited data

How the results depend on the processing

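The count of member probe sets past the threshold stayed at 0 under every alternative except centring each array on its median, where it was 9 and where 9406 of all probe sets passed. Under centring the median difference of all probe sets was -0.0055, and the array medians differed by more than most probe sets moved. Over all probe sets the count was 77 as deposited, 0 after quantile normalization, 0 with the replicate number as a block, 7 with unmoderated variances, 391 with array weights, and 0 to 546 with 1 array left out, the highest without control replicate 3. For other wall enzymes it was 1 as deposited, 0 after quantile normalization, 32 after centring, 0 with the block, 0 with unmoderated variances, 4 with array weights, and 0 to 8 with 1 array left out. Same-numbered arrays did not deviate together (r of -0.092, -0.023 and -0.11 across probe sets), and pairs with different numbers had r from -0.049 to 0.12. Deviations from a group's mean sum to 0 over its 3 arrays, so this check cannot exclude a pairing by number. XET2, XTH1, XTH3, XTH6, XTH7, XTH16 and tXET-B2 kept their direction under every alternative that gave them a value. XET4 reversed to -0.00066 after quantile normalization and to -0.0055 after centring. XTH5 reversed to 0.00038 without control replicate 1 and to 0.00012 without drought replicate 2, and ran from -0.00086 to 0.00038 with 1 array left out. LOC543916 ran from -0.063 to 0.016, reversed without control replicate 2. The cause was not tested. XTH6, XTH7 and XET4 had no value once the dimmest 30% were left out.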
